A study of Mus musculus with 12 samples.

Results

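The cytosolic ribosomal protein genes of the mouse were taken from a gene table of C2C12 cells by symbol: every symbol that starts with Rpl or Rps and a digit, together with Rplp0, Rplp1, Rplp2 and Rpsa. The S6 kinases, Rps19bp1 and symbols of pseudogenes were left out. The rule found 85 genes among the 26271 loci of the table. Of these, 77 encode the core ribosomal proteins, 31 of the small and 46 of the large subunit, and 8 are paralogues of core genes (Rpl3l, Rpl7l1, Rpl10l, Rpl22l1, Rpl36al, Rpl39l, Rps27l and Rps4y2). RefSeq lists Rps4y2 as a transcribed pseudogene, Rps4l.

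C2C12 is an established line of mouse myoblasts, the proliferating precursors of muscle fibres. For 24 h the cells grew in DMEM whose sugar was glucose at 25 mM (called high glucose here), glucose at 5 mM (low glucose) or galactose at 10 mM. All 3 media also held 1 mM sodium pyruvate, 10% fetal bovine serum and 1% penicillin/streptomycin. Polyadenylated RNA was sequenced from 4 libraries a medium, 12 in all, and the labels do not say whether these came from separate cultures. The galactose medium differs from each glucose medium in the sugar and in its concentration, so these cannot be told apart in either comparison with galactose. All cells are of 1 line. The series' design text speaks of single muscle stem cells, whereas every sample label names C2C12, and the labels were followed.

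The deposited table gives 1 FPKM value a group, that is, fragments counted per length of transcript and per depth of sequencing, and the authors' log2 fold change, p and q for each pair of media. No value of a single library stands in it, so the spread between libraries, their overlap and their depth are not known here. A locus is called higher or lower below where the authors tested it, its larger group value was at least 1 FPKM and the authors' q was below 0.05. High glucose serves as the starting group of 2 of the 3 comparisons, which therefore share its libraries. In bulk RNA, a smaller share of a kind of cell and less RNA of a gene per cell cannot be told apart.

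As background, each ribosome joins a small subunit, which holds the mRNA and pairs codons with tRNAs, and a large subunit, which forms peptide bonds and lets the new chain out through an exit tunnel. Cells make the proteins of both subunits in near-equal numbers, and proliferating cells spend much of their transcription and translation on them. Nearly all of these mRNAs begin with a cytosine followed by a run of pyrimidines, the 5′ terminal oligopyrimidine (TOP) motif, through which the kinase complex mTORC1 and the protein LARP1 set their translation and stability in step with nutrients. Ribosomal protein genes have also given rise to many processed pseudogenes, copies of the spliced mRNA set into other places in the genome.

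RefSeq start sites (GRCm38.p6) were found for 64 of the 85 genes. The 30 bases around the start are shown for some of the genes of at least 1 FPKM that have a single start there. First come the 5 of these with the largest rise from high glucose to galactose. Then come the 5 with the smallest change, so that both ends of the response can be compared. Each runs 5′ to 3′ along the transcript, the start is the 16th base, and capitals mark the longest unbroken run of C and T that comes within 5 bases of the start.
Rps7: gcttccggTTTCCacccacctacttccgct
Rps13: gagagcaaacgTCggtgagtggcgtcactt
Rpl35: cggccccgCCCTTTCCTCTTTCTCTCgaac
Rps10: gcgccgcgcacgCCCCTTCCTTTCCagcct
Rpl24: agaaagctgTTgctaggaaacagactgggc
Rpl38: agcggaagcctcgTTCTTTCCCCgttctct
Rpl15: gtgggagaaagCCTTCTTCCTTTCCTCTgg
Rps15: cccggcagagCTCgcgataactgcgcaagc
Rps27: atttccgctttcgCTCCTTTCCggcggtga
Rps28: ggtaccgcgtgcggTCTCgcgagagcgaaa

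These windows lie at chr12:28635939-28635968 (Rps7, minus strand), chr7:116334176-116334205 (Rps13, minus), chr2:39005117-39005146 (Rpl35, minus), chr17:27635230-27635259 (Rps10, minus) and chr16:55966260-55966289 (Rpl24, plus). Those of the second set lie at chr11:114668565-114668594 (Rpl38, plus), chr14:18270972-18271001 (Rpl15, minus), chr10:80292416-80292445 (Rps15, plus), chr3:90213634-90213663 (Rps27, minus) and chr17:33824548-33824577 (Rps28, minus). The runs of the first 5 are 5, 2, 18, 13 and 2 bases long and those of the other 5 are 10, 17, 3, 9 and 4 bases long. Long and short runs thus stand at both ends among the genes shown, as ordered by their own loci. This order changes when loci over pseudogene copies are added. The log2 ratios in galactose against high glucose were then 0.68 for Rps7, 0.34 for Rps10 and 0.62 for Rpl24. In the second set they were 0.72 for Rpl38, 0.19 for Rpl15, 0.29 for Rps15 and 0.21 for Rps28. For Rps13, Rpl35 and Rps27 no locus over a copy was found. These are annotated starts, and the starts used in these cells were not measured, so a short run here need not be that of the mRNA.

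Over all 76 RefSeq starts of these genes, a run of at least 8 C or T near the start was found at 24 (31.6%), against 9.38% of the 32851 starts of all genes. A run of at least 5 was found at 37 (48.7%), against 31.4% of all starts. Within 250 bases before and 50 bases after the start, on either strand, CCGGAA, the core letters of sites of ETS factors such as GABP, was present at 36 starts (47.4%), against 14.9% of all. The YY1 letters AAGATGGC were present at 8 (10.5%), against 2.75%, and the Myc E-box CACGTG at 8 (10.5%), against 7.15%. TATAAA, the TATA box, was present at 7 (9.21%), against 13.6%. None of these motifs contains another, but CCGGAA read on the other strand can share bases with a run of C and T. These matches describe the sequence only.

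Ribosomal protein genes together held 22187 FPKM in high glucose, 25892 FPKM in low glucose and 30110 FPKM in galactose in the authors' deposited table. That was 4.05%, 4.45% and 4.88% of the FPKM of all loci. The order of the 3 media was the same for the median gene, at 40.5, 51.5 and 54.8 FPKM. Rpl41, Rplp1 and Rpl8 alone held 47.9% of the genes' sum in high glucose and 49.5% in galactose. Rpl41, the smallest ribosomal protein, stood at 4515, 5101 and 5747 FPKM in these media in turn. Rplp1, an acidic protein of the stalk that recruits elongation factors, stood at 3625, 4520 and 5863 FPKM. Rpl8, a protein near the peptidyl transferase centre, stood at 2490, 2934 and 3297 FPKM. At the other end, 7 of the 85 genes were below 1 FPKM in high glucose.

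**Figure D1:**
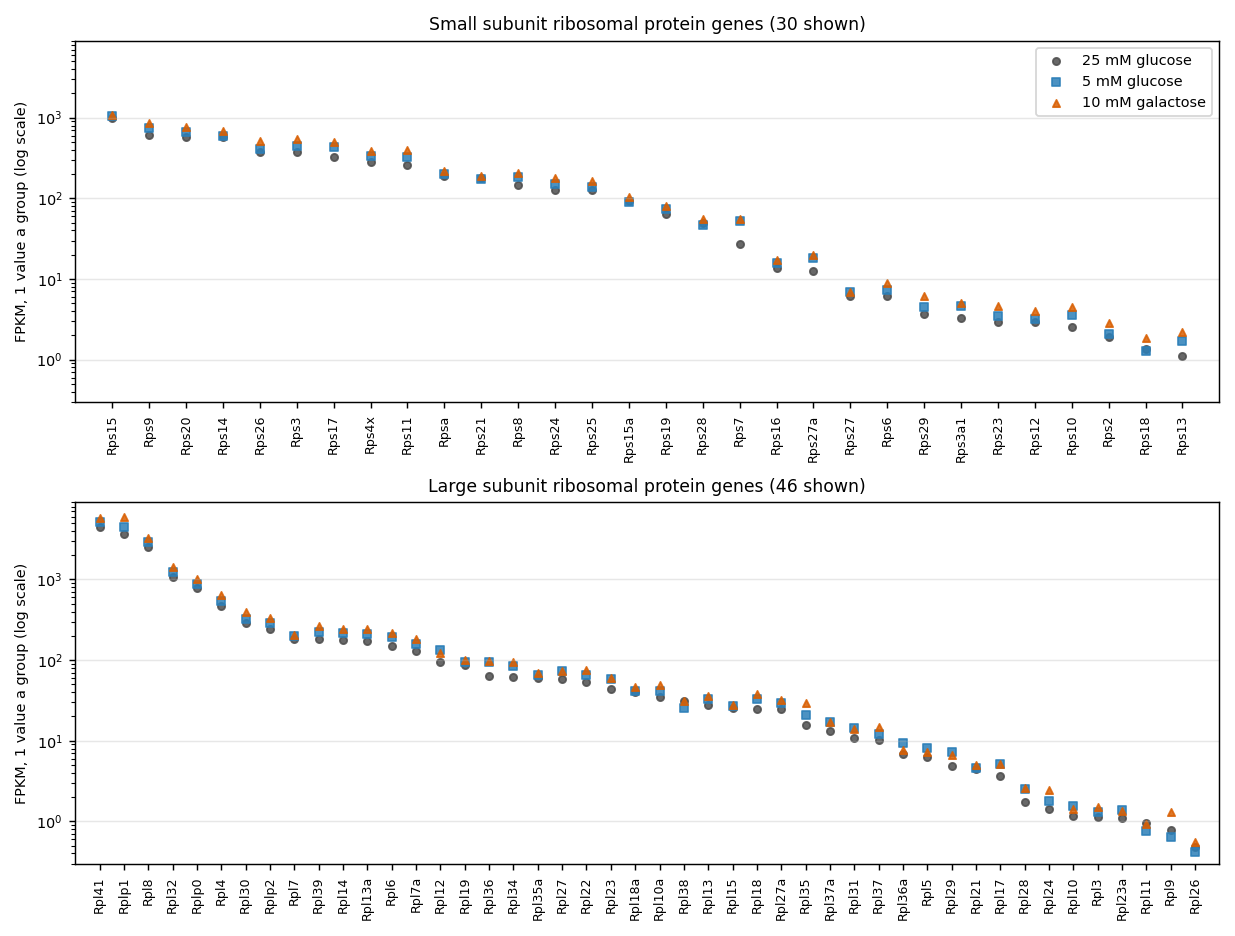
FPKM (log scale) of 76 of the 77 core genes, 1 value a group, in 25 mM glucose (circles), 5 mM glucose (squares) and 10 mM galactose (triangles), ordered by the value in 25 mM glucose. Levels span from 0.488 FPKM (Rpl26) to 4515 FPKM (Rpl41) in high glucose, and the triangles lie above the circles for all genes but Rpl11.

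From high glucose to low glucose, 39 of the 78 genes that could be counted (50%) were called higher and 0 lower in the authors' deposited table. Over all 13114 loci tested at this level, 19.9% were called higher and 17.5% lower. The median log2 fold change of the genes was 0.26 (quartiles 0.14 and 0.38), against 0.02 (quartiles -0.16 and 0.19) for all loci. From high glucose to galactose, 60 of 79 genes (75.9%) were called higher and 0 lower, against 28.5% and 24.5% of all loci. The median log2 fold change was 0.44 (quartiles 0.32 and 0.55), against 0.03 for all loci. From low glucose to galactose, 28 of 79 genes (35.4%) were called higher and 1 lower, against 17.8% and 16.2% of all loci, and the median was 0.18 (quartiles 0.08 and 0.26), against 0.01. With each group divided by its sum over all loci, the genes' medians were 0.17, 0.27 and 0.10 in these comparisons, beside -0.06, -0.14 and -0.07 for all loci. In each comparison the genes thus moved by small steps, mostly less than 1.5-fold, and those that passed the test moved upward with 1 exception.

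The genes outside these counts were few. Rpl3l, Rpl10l, Rpl39l and Rps4y2 were not tested by the authors in any comparison, with levels listed at or near 0. The table gives no read counts, so a listed 0 does not show that a gene is silent. Rpl11 and Rpl26 stayed below 1 FPKM at their own loci, as did Rpl9 in both glucose media, and Rpl9 entered the other 2 comparisons only through its value of 1.32 FPKM in galactose. Without the minimum of 1 FPKM the numbers of genes called were the same.

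**Figure D2:**
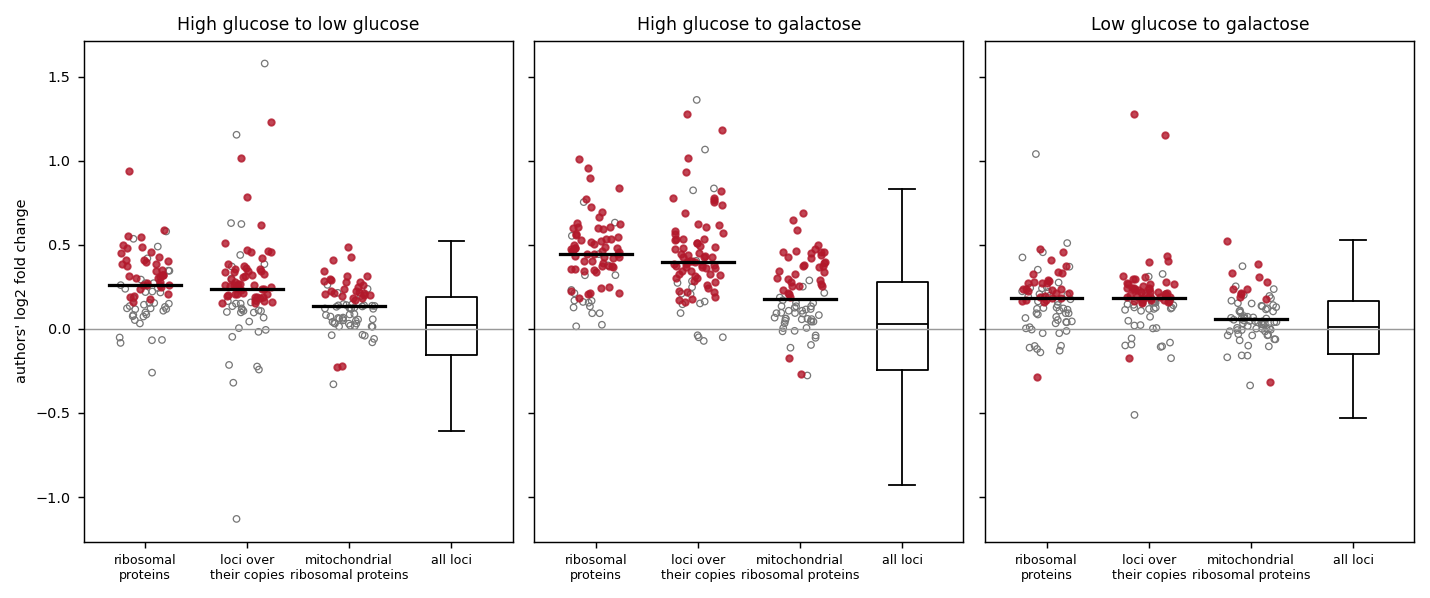
The authors' log2 fold change of each ribosomal protein gene, of each locus over a pseudogene copy of one, and of each mitochondrial ribosomal protein gene, in the 3 comparisons. Filled red points passed the authors' q of 0.05, open points did not, and thick bars are medians. The box shows the quartiles and median of all loci, with whiskers at the percentiles 5 and 95. Ribosomal protein genes and the loci over their copies lie mostly above 0, with medians of 0.26 and 0.24 in low glucose and 0.44 and 0.40 in galactose.

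The small subunit was followed first. Of its 31 core genes, 14 were called higher in low than in high glucose, 25 in galactose against high glucose and 14 in galactose against low glucose, with medians of 0.22, 0.47 and 0.23 in the authors' deposited table. Rps7, a protein of the small subunit that is also known to bind the p53 regulator MDM2, had the largest rise at its own locus, with 27.3 FPKM in high glucose and 52.4 and 55.1 FPKM in the other media. Low glucose and galactose were thus about equal, 1.92-fold and 2.01-fold above high glucose. The log2 fold changes of Rps7 in the authors' deposited table were 0.94 in low glucose (q = 0.000239) and 1.01 in galactose (q = 0.000239), and the step between these media was 0.07 (q = 0.582). The value 0.000239 is the smallest q in the table. With the locus over its pseudogene copy added, the log2 ratios of Rps7 were 0.52 and 0.68. Rps13 (0.96) and Rpl35 (0.90) had larger ratios in galactose than that sum. For Rps13 and Rpl35, however, no locus over a copy was found, so their ratios are those of the own locus and are not a like comparison.

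Rps13, which sits on the body of the small subunit near the interface, stood at 1.13, 1.69 and 2.19 FPKM in the 3 media. In the authors' deposited table it rose by 0.59 on the log2 scale in low glucose (q = 0.0495) and by 0.96 in galactose (q = 0.00179). Rps10, a protein at the mRNA entry side of the head that is ubiquitinated when ribosomes collide, stood at 2.51, 3.55 and 4.49 FPKM. At this own locus it was called higher in each comparison, by 0.50 (q = 0.0267), 0.84 (q = 0.000239) and 0.34 (q = 0.0313) in the authors' deposited table. The loci over its copies held 786 FPKM in high glucose, and with these added the log2 ratios of Rps10 were 0.17, 0.34 and 0.17. Rps27a, which is made as a fusion with ubiquitin, stood at 12.4, 18.1 and 19.6 FPKM and was called higher in both media against high glucose. In galactose these genes stood above both glucose media, Rps27a and Rps7 only slightly above low glucose.

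Some small subunit genes were not called at their own loci in any comparison. Rps21 stood at 180, 172 and 192 FPKM, Rps28 at 49.1, 46.3 and 54.8 FPKM and Rps18 at 1.35, 1.29 and 1.83 FPKM. The locus over Gm46546, a copy of Rps21, stood at 234, 270 and 319 FPKM and was called higher in each comparison. Its log2 fold changes were 0.20 (q = 0.0456), 0.44 (q = 0.000239) and 0.24 (q = 0.0130) in the authors' deposited table. The locus over Gm10443, a copy of Rps28, stood at 497, 531 and 578 FPKM. It was called higher only in galactose against high glucose (0.22, q = 0.00896, in the authors' deposited table). The value of Rps18 was highest in galactose, with a log2 fold change of 0.51 from low glucose (q = 0.696 in the authors' deposited table). Rps27, a zinc finger protein, stood at 6.24, 6.83 and 6.84 FPKM. By contrast, Rps15a stood at 92.4, 89.2 and 104.9 FPKM and was called higher in galactose against both glucose media (log2 fold changes of 0.18, q = 0.0219, and 0.23, q = 0.00215, in the authors' deposited table).

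By place in the small subunit, the decoding site and head (Rps15, Rps18, Rps20, Rps23 and Rps29) had 1 of 5 genes called higher in low glucose and 3 of 5 in galactose against either glucose medium. These are 20%, 60% and 60%, beside 50%, 75.9% and 35.4% of the whole set and 19.9%, 28.5% and 17.8% of all loci. Rps29, a small zinc-binding protein of the head, stood at 3.73, 4.50 and 6.16 FPKM and was called higher in galactose (0.73, q = 0.00300, against high glucose in the authors' deposited table). Rps23, whose loop reaches into the decoding centre, stood at 2.96, 3.44 and 4.57 FPKM and was likewise called in galactose against high glucose (0.63, q = 0.00232, in the authors' deposited table). At the mRNA entry, Rps3 stood at 374, 442 and 541 FPKM and was called higher in galactose against both glucose media. Rps2 stood at 1.93, 2.06 and 2.83 FPKM and was not called.

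In the large subunit, 24 of 43 countable core genes were called higher in low glucose, 33 of 44 in galactose against high glucose and 13 of 44 in galactose against low glucose, with 1 lower. Their medians were 0.30, 0.43 and 0.17 in the authors' deposited table. In the stalk, which draws translation factors to the ribosome, Rplp1 and Rplp0 were called higher in all 3 comparisons, Rplp2 only in galactose against high glucose, and Rpl12 in none. Rplp0, the base of the stalk, stood at 790, 884 and 1012 FPKM, and Rplp2 at 241, 291 and 333 FPKM. Rplp1 rose by 0.32 in low glucose (q = 0.000239), 0.69 in galactose (q = 0.000239) and 0.38 between them (q = 0.000239) in the authors' deposited table, so that its 3 values were well apart.

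Around the exit tunnel, 6 of 8 countable genes were called higher in low glucose, 7 of 8 in galactose against high glucose and 3 of 8 in galactose against low glucose. These are 75%, 87.5% and 37.5%, beside 50%, 75.9% and 35.4% of the whole set of ribosomal protein genes. Of all loci, 19.9%, 28.5% and 17.8% were called higher. Rpl35, at the rim of the tunnel, stood at 15.6, 20.9 and 29.0 FPKM. It had log2 fold changes of 0.42 (q = 0.00954), 0.90 (q = 0.000239) and 0.47 (q = 0.00463) in the authors' deposited table. Rpl39, a short protein that lines the tunnel wall, stood at 180, 225 and 265 FPKM, and Rpl4, whose loop forms the constriction, at 470, 542 and 638 FPKM. Both were called higher in both media against high glucose, and Rpl4 also in galactose against low glucose. Rpl23a, a docking site for chaperones at the exit, stood at 1.09, 1.39 and 1.36 FPKM and was the tunnel gene not called in galactose.

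Rpl5 and Rpl11 carry 5S rRNA into the ribosome and, outside it, bind MDM2. Rpl5 stood at 6.21, 8.03 and 7.29 FPKM and was called higher in low glucose (0.37, q = 0.00124, in the authors' deposited table). Its value in galactose was not called against either glucose medium. Rpl11 stood at 0.946, 0.750 and 0.933 FPKM at its own locus.

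Several large subunit genes had a higher value in low glucose than in galactose. Rpl36a was the gene called lower in galactose, with values of 6.89, 9.42 and 7.73 FPKM in the 3 media. It rose by 0.45 in low glucose (q = 0.000239) and had a log2 fold change of -0.29 from low glucose to galactose (q = 0.0183) in the authors' deposited table. Against high glucose its galactose value was not called (0.17, q = 0.234, in the authors' deposited table). Rpl29, a protein of the subunit's surface, stood at 4.90, 7.19 and 6.61 FPKM and was called higher in both media against high glucose. The step of Rpl29 between low glucose and galactose, -0.12, was not called (q = 0.380 in the authors' deposited table).

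Rpl38, known for its role in axial patterning through Hox mRNAs, stood at 30.9, 25.8 and 31.2 FPKM, its lowest value in low glucose. It was not called in any comparison, with a log2 fold change of -0.26 in low glucose (q = 0.107) and 0.02 in galactose (q = 0.943) in the authors' deposited table. Rpl15 was as flat, with 25.7, 26.7 and 27.5 FPKM. Rpl12 and Rpl36 had log2 fold changes of 0.49 (q = 0.880) and 0.58 (q = 0.681) in low glucose in the authors' deposited table. These were as large as those of genes called higher, yet neither gene was called at its own locus. The locus over Gm10275, a copy of Rpl12, stood at 726, 872 and 1047 FPKM and was called higher in each comparison. For Rpl36 no locus over a copy was found.

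The widths of the loci were then set beside the calls. In 29 of the 85 genes the locus of the table reached more than 2000 bases beyond the RefSeq gene, and in some it took in neighbouring genes. The locus of Rps15 spanned 672333 bases at chr10:79697305-80369637 and took in 44 other coding genes, that of Rpl38 spanned 413361 bases and that of Rpl12 spanned 88432 bases. Of the genes in such loci, 9 of 27 were called higher in low glucose, 16 of 28 in galactose against high glucose and 7 of 28 in galactose against low glucose. Among the genes in loci of ordinary width, these counts were 30 of 51, 44 of 51 and 21 of 51, with the 1 lower call among them. The medians of the latter were 0.28, 0.47 and 0.18. In 6 cases, among them Rpl41, Rpl38, Rpl8, Rpl7a and Rps15a, the locus also carried the symbol of a further gene, so that the values include the neighbour's, and the Rpl34 locus also carried Rpl34-ps1. The part of locus width in the calls was not tested.

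The 8 paralogues are read by pairs with their core gene. Rpl22 stood at 52.9, 65.2 and 76.3 FPKM and its paralogue Rpl22l1 at 36.1, 41.0 and 51.7 FPKM. Both were called higher in galactose against either glucose medium, by 0.53 (q = 0.000239) for Rpl22 and 0.52 (q = 0.000239) for Rpl22l1 against high glucose in the authors' deposited table. Rps27l, a target gene of p53, stood at 211, 234 and 214 FPKM and was not called. Rps27 was listed at 6.24 FPKM in high glucose. Rpl36al stood at 111, 118 and 129 FPKM, above the values listed for Rpl36a, and was not called either. By the measure of shared sequence given below, 98.6% of the windows of Rps27 also occur in another annotated gene, against 22.4% for Rps27l. For Rpl36a the share was 85.5%, against 63.3% for Rpl36al. Reads that fit several places can be listed at another locus, so these values do not rank either paralogue against its core gene. Rpl7l1 stood at 40.5, 51.5 and 48.0 FPKM and was called higher in both media against high glucose, while Rpl7, at 182, 197 and 203 FPKM, was not called. Of the paralogues that the authors did not test, Rpl3l, which muscle fibres express, was at 0.0281 FPKM in high glucose and listed at 0 in low glucose, and Rpl39l and Rps4y2 were listed at 0 in every medium. Rpl10l, a testis gene, was listed at 0 in high glucose and galactose.

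Of 18 genes of the set that are mutated in Diamond-Blackfan anaemia, an inherited failure of red cell production, 16 could be counted. In low glucose 10 were called higher, in galactose 12 against high glucose and 6 against low glucose. These are 62.5%, 75% and 37.5%, beside 50%, 75.9% and 35.4% of the whole set of ribosomal protein genes. Core proteins with a counterpart in bacteria had 13 of 30, 22 of 31 and 12 of 31 genes called higher in the 3 comparisons. Core proteins found in eukaryotes or archaea but not in bacteria had 25 of 44, 36 of 44 and 15 of 44, with medians of 0.27, 0.46 and 0.18 against 0.24, 0.43 and 0.20 in the authors' deposited table. No test of the difference was run.

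Among genes that reached 100 FPKM, 16 of 34 were called higher in low glucose and 28 of 34 in galactose against high glucose. Among genes of 10 to 100 FPKM these were 15 of 24 and 20 of 24, and among genes of 1 to 10 FPKM 8 of 20 and 12 of 21. Mitochondrial ribosomal proteins, the 76 genes of the separate ribosome inside mitochondria, give the nearest other set. Of these, 26 of 75 were called higher in low glucose and 34 of 76 in galactose, with 2 lower in each, and their medians were 0.13 and 0.18 in the authors' deposited table. From low glucose to galactose, 11 of 76 were called higher and 1 lower, with a median of 0.06. The shares called higher were thus 34.7%, 44.7% and 14.5%, beside 19.9%, 28.5% and 17.8% of all loci. No test of the difference between the 2 sets was run.

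The low values of many core genes were then set beside those of their pseudogene copies. Proteins needed in equal numbers, such as Rpl26, Rpl11 and Rpl3, stood near 1 FPKM at their own loci, whereas Rpl32 stood at 1058 FPKM. The annotation (GENCODE M21) holds 1139 pseudogenes that match the mRNA of 80 of the 85 genes with at least 90% identity. In the table, 85 loci lay over 84 of these copies, from 45 genes, and carried no gene symbol or a pseudogene's. Of the 334 loci without a symbol at 100 FPKM or more in high glucose, 48 lay over such copies.

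The likeness of gene and copy is shown for 4 genes with almost no signal at their own locus, by the first 90 coding bases from the start codon. Rpl26 and its copy Gm15772 (chr5:3236431-3236868, plus strand) hold the same letters there and are 99.5% identical over the 438 coding bases.
Rpl26 and Gm15772: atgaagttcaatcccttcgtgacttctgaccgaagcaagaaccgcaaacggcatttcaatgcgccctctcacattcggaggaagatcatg
For Rpl3 and Rpl3-ps1 (chrX:13202571-13203780, plus strand), 99.8% identical over 1209 coding bases, the capital marks the base that differs.
Rpl3: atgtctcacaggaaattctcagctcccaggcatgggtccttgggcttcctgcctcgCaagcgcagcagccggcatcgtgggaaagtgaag
Rpl3-ps1: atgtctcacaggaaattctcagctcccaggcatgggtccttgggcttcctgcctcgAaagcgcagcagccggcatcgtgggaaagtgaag
Rpl11 and Gm10288 (chr3:146838811-146839347, minus strand) are 99.8% identical over 537 coding bases, and again 1 base differs in the stretch shown.
Rpl11: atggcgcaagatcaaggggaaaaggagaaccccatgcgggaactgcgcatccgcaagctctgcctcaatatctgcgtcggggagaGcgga
Gm10288: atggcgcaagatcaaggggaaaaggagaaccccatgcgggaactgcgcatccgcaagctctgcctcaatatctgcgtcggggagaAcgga
Rps10 and Rps10-ps2 (chr16:20822145-20822640, minus strand) hold the same letters over this stretch.
Rps10 and Rps10-ps2: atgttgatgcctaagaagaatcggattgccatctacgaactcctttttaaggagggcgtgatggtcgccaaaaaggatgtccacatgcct

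At its own locus Rpl26 stood at 0.488, 0.423 and 0.558 FPKM, while the locus over Gm15772 stood at 785, 936 and 1088 FPKM in the 3 media. Rpl3, which stood at 1.14, 1.32 and 1.52 FPKM, compares with 876, 1101 and 1301 FPKM over Rpl3-ps1. Rpl11, below 1 FPKM, compares with 351, 392 and 432 FPKM over Gm10288. For these 3 genes nearly all of the signal of gene and copy together was thus listed at the copy. Rps10 and Rps10-ps2 showed the same, with 469, 505 and 570 FPKM over the copy. Rps7 shared its signal more evenly, with 196, 268 and 301 FPKM at the locus over AC121967.1 (98.6% identical) beside its own 27.3, 52.4 and 55.1 FPKM. Processed copies lack introns, and a read from a spliced mRNA can match such a copy as well as the gene. Which of these loci the RNA came from cannot be told from 1 FPKM value a locus and was not tested.

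**Figure D3:**
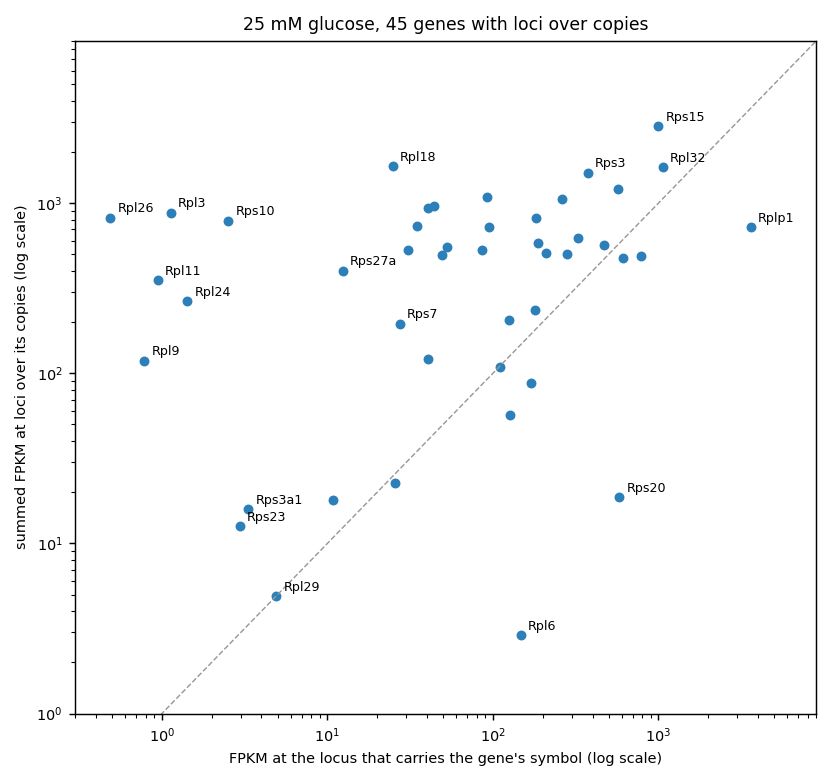
FPKM in high glucose at each gene's own locus (horizontal, log scale) and summed over the loci on its pseudogene copies (vertical, log scale), for the 45 genes with such loci. The dashed line marks equal values. Points above it are genes whose copies hold more, and Rpl26, Rpl3, Rpl11 and Rps10 lie at the upper left.

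In high glucose, the loci over copies held more FPKM than the gene's own locus for 35 of the 45 genes. These loci summed to 26465, 30721 and 35140 FPKM in high glucose, low glucose and galactose, 4.83%, 5.27% and 5.69% of the table, which is more than the genes' own loci. Genes and copies together made up 8.88%, 9.72% and 10.6% of the FPKM of all loci. With the copies added, the median core gene stood at 241 FPKM in high glucose in place of 49.1 FPKM, 15 in place of 23 core genes stood under 10 FPKM, and 47 in place of 29 stood at 100 FPKM or more. For Rpl10, Rpl23a, Rpl28, Rps2, Rps12, Rps13 and Rps18, all under 3 FPKM in high glucose, no locus of the table met the rule for lying over a copy.

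The loci over copies were counted by the same rule. Of 84 tested loci, 51 (60.7%) were called higher and 0 lower in low against high glucose, 66 (78.6%) higher and 0 lower in galactose against high glucose, and 45 (53.6%) higher and 1 lower in galactose against low glucose. Of all loci, 19.9%, 28.5% and 17.8% were called higher in these comparisons. The medians of the loci over copies were 0.24, 0.40 and 0.18 in the authors' deposited table. The 1 locus called lower lay over Gm11222, a copy of the Rpl7l1 mRNA (-0.17, q = 0.0483, in the authors' deposited table). Over Rpl3-ps1 the log2 fold changes were 0.33 in low glucose (q = 0.000239) and 0.57 in galactose (q = 0.000239) in the authors' deposited table. For Rpl26, whose own locus was too low to be counted, the locus over Gm15772 rose by 0.25 (q = 0.000659) and 0.47 (q = 0.000239) in the authors' deposited table. For Rpl38, flat at its wide own locus, the locus over Rpl38-ps2 stood at 532, 679 and 897 FPKM and rose by 0.35 (q = 0.000239) and 0.76 (q = 0.000239) in the authors' deposited table. With each gene's own value and its copies added up, the median log2 ratio was 0.26 in low glucose, 0.44 in galactose and 0.18 between these, as for the own loci alone. Reads that fit both places make the values of a gene and its copy dependent, so the copies are not a second measurement.

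The share of a gene's mRNA that also occurs elsewhere was measured as the share of its 50-base windows found letter for letter in an annotated transcript of another gene. Among the 24 core genes with less than 40% of windows shared, the median was 211 FPKM in high glucose and 2 stood under 10 FPKM. Among 22 genes with 40% to under 70% shared, it was 62.5 FPKM, and 4 stood under 10 FPKM. Among 31 genes with 70% or more shared, it was 6.24 FPKM, and 17 stood under 10 FPKM. Across the 77 core genes Spearman's rho between the share and the level was -0.54, as a description over genes that share the same libraries. With the log2 fold change rho was 0.31 from high to low glucose (74 genes), 0.18 from high glucose to galactose (75 genes) and -0.03 from low glucose to galactose (75 genes). The median log2 fold changes of the 3 classes in low glucose were 0.24, 0.26 and 0.34 in the authors' deposited table, with 11 of 24, 12 of 21 and 15 of 29 genes called higher. In galactose against high glucose 20 of 24, 17 of 21 and 21 of 30 genes were called higher, and against low glucose 13 of 24, 8 of 21 and 6 of 30.

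**Figure D4:**
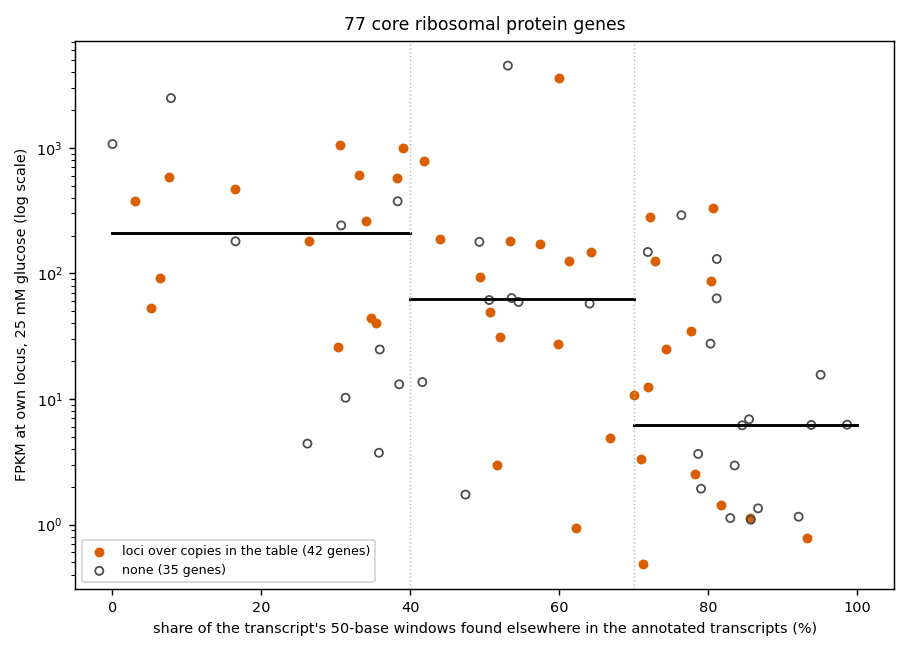
Share of each core gene's 50-base windows that also occur in another annotated gene (horizontal, %) against its own FPKM in high glucose (vertical, log scale). Filled points have loci over copies in the table, open points do not, and thick bars are class medians. The medians step down from 211 to 62.5 and 6.24 FPKM as more of the sequence is shared.

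The runs of C and T at the start were read against the response in the same way. Of the genes with a run of at least 5, 16 of 34 were called higher in low glucose and 26 of 34 in galactose against high glucose, with medians of 0.26 and 0.47 in the authors' deposited table. Genes with shorter runs had 14 of 24 and 18 of 25, with medians of 0.26 and 0.37. Between low glucose and galactose, the counts were 13 of 34 and 6 of 25. No test of a difference between these classes was run.

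Other mRNAs with a TOP motif were counted next. Of 18 such genes, 12 of 16 tested were called higher in low glucose, 14 of 17 in galactose against high glucose and 9 of 16 in galactose against low glucose, with medians of 0.27, 0.44 and 0.20 in the authors' deposited table. These counts are 75%, 82.4% and 56.25%, beside 19.9%, 28.5% and 17.8% of all loci. Npm1, a nucleolar chaperone of ribosome assembly, stood at 149, 235 and 287 FPKM and was called higher in all 3 comparisons. Pabpc1, which binds poly(A) tails, stood at 572, 717 and 859 FPKM, and Eef1b2, an elongation factor subunit, at 222, 272 and 323 FPKM, again called in all 3. Hnrnpa1, a splicing factor, went another way, with 21.7, 24.4 and 20.4 FPKM, and was called lower from low glucose to galactose (-0.26, q = 0.000858, in the authors' deposited table). Vim had too many reads for the authors' tool in all 3 comparisons and is listed at 0 throughout. Eef1a1 had too many in both comparisons with low glucose and is listed at 0 there, beside 1834 FPKM in high glucose and 2270 FPKM in galactose. The sums over all loci include these zeros.

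The host RNAs of small nucleolar RNAs, whose introns release RNAs that guide the modification of rRNA, had 6 of 6 genes called higher in galactose against high glucose and 3 of 6 in low glucose. Over all loci these shares were 28.5% and 19.9%. Gas5, whose locus also carries Mir5117, stood at 35.8, 47.1 and 58.6 FPKM and Snhg6 at 22.0, 28.2 and 42.7 FPKM. Fau, which encodes a ribosomal protein fused to a ubiquitin-like protein and falls outside the naming rule, stood at 41.6, 53.3 and 61.1 FPKM and was called higher in galactose against high glucose. Gnb2l1 (RACK1), a scaffold on the small subunit, stood at 1097, 1274 and 1480 FPKM and was called higher in all 3 comparisons.

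Regulators of mTORC1 and of TOP mRNAs were called in both directions. Of 25 genes of this list found, 6 rose and 4 fell in low glucose, and 10 rose and 4 fell in galactose against high glucose. These are 24% and 16% in low glucose, close to the 19.9% and 17.5% of all loci, and 40% and 16% in galactose, beside 28.5% and 24.5%. Eif4ebp1, a repressor of cap-dependent translation that mTORC1 inactivates, stood at 268, 588 and 987 FPKM. Sesn2, a leucine-binding inhibitor of mTORC1 signalling, stood at 8.55, 22.4 and 38.7 FPKM, and Ddit4 (REDD1), another inhibitor, at 29.2, 34.1 and 67.0 FPKM. Rheb, the GTPase that activates mTORC1, stood at 62.8, 80.6 and 107 FPKM, and Larp1, which binds TOP motifs, at 53.8, 72.0 and 82.5 FPKM. All of these were called higher in all 3 comparisons. Deptor, an inhibitor within the complex, stood at 14.3, 10.3 and 5.56 FPKM and Sesn1 at 8.42, 5.17 and 3.55 FPKM, both called lower in all 3. Mtor itself stood at 9.70, 10.4 and 9.95 FPKM and was not called.

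Among 12 transcription factors that act on ribosomal protein genes, the authors tested 11. In low glucose 5 of these rose and 4 fell, and 5 were called higher and 3 lower in galactose against high glucose. These are 45.5% and 36.4% in low glucose, beside 19.9% and 17.5% of all loci. In galactose they are 45.5% and 27.3%, beside 28.5% and 24.5%. Myc stood at 44.2, 72.8 and 78.2 FPKM and was called higher in both media against high glucose, but not between them. Of the MAX partners that oppose it, Mxd4 stood at 18.2, 6.69 and 3.11 FPKM and the locus that Mxd3 shares with Rab24 at 76.7, 52.3 and 37.0 FPKM, both called lower in all 3 comparisons. The value of the shared locus cannot be given to Mxd3 alone. The list holds further MAX partners, whose values are not given here. Over the list, log2 fold changes from high glucose to galactose ran from -2.54 to 1.07, with a median of -0.04. The largest rise, 1.07, was of a gene not named here. Yy1 stood at 33.0, 40.6 and 43.1 FPKM and Gabpb1 at 9.47, 11.5 and 11.2 FPKM, both called higher against high glucose. Their part in the levels of ribosomal protein genes was not tested.

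Markers of myoblasts moved with the media as well. Myod1, Myf5, Des, Cdh15 and Pax7 were present, and the 6 genes of the list summed to 746, 488 and 394 FPKM in high glucose, low glucose and galactose. Of the 5 at 1 FPKM or more, 4 were called lower in low glucose and 5 in galactose against either glucose medium. Over all loci, 17.5% were called lower in low glucose, 24.5% in galactose against high glucose and 16.2% in galactose against low glucose. Among markers of other cells, those of endothelium, fat and epithelium were all below 1 FPKM, of the 4 fibroblast genes Thy1 and Lum were listed at 0 and Dpt was below 1 FPKM, and the leukocyte gene Ptprc was near 0. Pdgfra, the fourth fibroblast gene, stood at 1.72, 1.37 and 1.30 FPKM and was called lower in both media against high glucose. Cd68 shares its locus with Eif4a1, so its value of 72.7 FPKM in high glucose cannot be given to it alone. The part of the change in myoblast genes in the result for ribosomal proteins was not tested.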

How the data were processed

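Per the submitters' processing notes, reads were aligned to mm10 with TopHat2 2.0.10 and assembled and compared with Cufflinks 2.2.0 and Cuffdiff. How reads matching several places were handled is not given in the sources used here. The authors deposited 1 gene table with 1 FPKM value a group, a log2 fold change, a test statistic (a score, not used), a p-value and a q-value for each pair of media. Each group pools 4 libraries, so no error, own test or left-out library is possible, and p-values measure only the spread between libraries that may be technical.

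Ribosomal protein genes were chosen by symbol, using the locus with the highest summed FPKM for Rplp0, Rpl6 and Rplp1, which appear in 2 loci. The members and lists were chosen with earlier results of these data known. A call needs status OK, 1 FPKM in the larger group and the authors' q below 0.05. The deposited q-values were recomputed from the p-values by Benjamini-Hochberg adjustment over 44006 tests, and differed by at most 5.26e-07.

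Named genes were those with the 6 largest rises and falls in each comparison, the 8 highest core genes, genes called lower, genes in loci of several symbols, genes not tested, the paralogue pairs and role lists. Others were added after their values were seen.

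Transcripts (GENCODE M21, 84 genes matched) were aligned to annotated pseudogenes with blastn 2.17.0 (at least 90% identity, 100 bases and 50% of the copy). A table locus counted as lying over a copy where the copy covered at least 50% of it. Scripts ran in Python 3.11.15 with pandas 2.3.3. The q adjustment, the shared windows, the cover of a locus and the finding of coding frames were tested on made-up inputs with known answers. The counting of calls was not tested in this way. RefSeq starts came from GRCm38.p6, the build named mm10. Some genes are not reported here.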

Additional observations from a re-analysis of the deposited data

How the results depend on the processing

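No paired analysis was possible because the table holds 1 value a group, so the fit with a replicate block and the fits that leave out each replicate were not run. No alternative reversed the sign of a median of the ribosomal protein genes, but the median of all loci went from 0.02, 0.03 and 0.01 to -0.06, -0.14 and -0.07 when divided by the sum of all loci, and 3703 in place of 3763 called loci then stayed above 0 from high glucose to galactose. Adding a minimum absolute log2 fold change of 0.5 left 4 ribosomal protein genes called higher in low glucose, 24 in galactose against high glucose and 0 in galactose against low glucose, with 0 lower. A q below 0.01 left 15 higher and 0 lower between low glucose and galactose, and 25 higher and 0 lower among the loci over copies there. Adjustment within each comparison, no level filter, every locus of a symbol, and leaving out loci of several symbols or wide loci moved no count by more than 1.5 times.

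Counting 1 locus per gene left 33 loci over copies called higher in low glucose and 39 in galactose against high glucose, and none (0) lower between low glucose and galactose. Requiring that the copy cover 90% of the locus left 17, 18 and 9 higher and 0 lower in the 3 comparisons. Fewer loci enter under both rules, so a smaller count here need not be a smaller share.

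Dividing by the sum of all loci, which was 0.09, 0.17 and 0.08 larger on the log2 scale in the second medium of each comparison, took the median log2 fold change of the genes to 0.17, 0.27 and 0.10. Dividing by the sum without ribosomal protein loci gave 0.18, 0.28 and 0.10, and centring on the median of all loci gave 0.24, 0.42 and 0.17. Each of these shifts all loci alike, and no call was tested again under them. With at least 100 FPKM the medians were 0.24, 0.43 and 0.19, with a pseudocount of 1 FPKM 0.24 and 0.40 against high glucose, and without wide loci 0.28 and 0.47. Own loci plus copies gave 0.45 in galactose over genes that passed the level filter, and leaving out paralogues gave 0.19 between low glucose and galactose. The wide-locus, copy and locus-count alternatives were chosen after seeing the data. FPKM without counts gives no depth, so what depth limits is unknown.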
